A study of Mus musculus with 16 samples.

Results

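Akr1c18 and 6 related genes of the aldo-keto reductase superfamily were followed through the ovaries of mice given testosterone. They were found in the table by their symbols (Akr1c18, Akr1c14, Akr1c12, Akr1c13, Akr1cl, Akr1b7 and Akr1b8), and they are 7 of 55426 genes. They were selected on measured values, since the difference of Akr1c18 between treated and control ovaries in these counts was known when it and its relatives were picked. Their values against controls are therefore given as a description, without a test. All 7 passed the filter on low counts and were among the 18833 genes fitted.

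The ovaries came from female C57BL/6NHsd mice, an inbred strain, with 1 ovary per mouse, 4 mice in each of 4 groups and all ovaries taken in diestrus. On T mice had weekly injections of 0.9 mg testosterone enanthate, a slowly released ester, under the skin for 6 weeks from 9 to 10 weeks of age, and were killed at 16 weeks while still being treated. Post T mice had the same course, were then followed until their cycles returned and for 4 more cycles, and were 24 to 28 weeks old. Each treated group had age-matched controls injected with sesame oil, called here On T controls and Post T controls. The labels name no genetic change in any group. A whole ovary mixes many cell types, so fewer cells of a type and less RNA per cell cannot be told apart. Cohort and age cannot be told apart in any comparison of the younger with the older groups. Between On T and Post T ovaries, the stop of testosterone cannot be told apart from cohort and age either.

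Aldo-keto reductases use NADPH or NADH to reduce aldehydes and ketones, and several act on steroids or prostaglandins. The enzyme made from Akr1c18 reduces progesterone to a hydroxylated product that binds the progesterone receptor poorly. In rodents the gene is active in corpora lutea, the glands left after ovulation, where prolactin represses it and the luteolytic prostaglandin F raises it as the gland regresses. Akr1c14 encodes a hydroxysteroid dehydrogenase that reduces dihydrotestosterone to a weaker androgen. Akr1b7 and Akr1b8 encode aldehyde reductases, the first of which detoxifies the aldehyde released when the cholesterol side chain is cleaved.

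Most of the Akr1c genes lie side by side. On chromosome 13 of GRCm38, 9 aldo-keto reductase genes fill 560.2 kb between 4049011 and 4609174, in the order Akr1c14, Akr1c18, Akr1c13, Akr1c19, Akr1c12, Akr1c6, Akr1c20, Akr1c21 and Akr1e1. Akr1c18 (ENSMUSG00000021214) occupies 4132615 to 4150654 on the minus strand, 41.93 kb from Akr1c14 (ENSMUSG00000033715, plus strand, 4049011 to 4090688) and 40.5 kb from Akr1c13 (ENSMUSG00000021213, plus strand, 4191150 to 4205596). Akr1c12 (ENSMUSG00000021211) lies on the minus strand at 4268176 to 4279433. Akr1cl (ENSMUSG00000025955) is on chromosome 1, minus strand, between 65012689 and 65032759. Akr1b8 (ENSMUSG00000029762, 34354119 to 34368463) and Akr1b7 (ENSMUSG00000052131, 34412334 to 34423142) are both on the plus strand of chromosome 6, with Akr1b10 (34384218 to 34396950) between them. All 7 are annotated as protein-coding, and their values are the authors' estimates per gene.

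The 250 bases upstream of the annotated start are printed for 5 of these genes, from RefSeq for GRCm38.p6, 5′ to 3′ on the strand of the gene. RefSeq's starts of all 5 lie inside the spans given above, so part of each window, and the whole window of Akr1c14, falls within its span. Akr1c18 and Akr1c14 are shown as neighbours whose transcripts behaved differently, Akr1b7 because it was the other gene that was low in both treated groups, and Akr1c12 beside Akr1c13 because their sequences are nearly the same. In Akr1b7 capitals mark the motif described below, and in Akr1c12 and Akr1c13 they mark bases left unmatched when these promoters were aligned to each other.
Akr1c18, chr13:4150647-4150896, minus strand: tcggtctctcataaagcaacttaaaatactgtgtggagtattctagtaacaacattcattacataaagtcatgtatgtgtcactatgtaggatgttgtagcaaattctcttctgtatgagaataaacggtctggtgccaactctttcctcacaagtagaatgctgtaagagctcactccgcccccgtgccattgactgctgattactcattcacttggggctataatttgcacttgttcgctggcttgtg
Akr1c14, chr13:4059341-4059590, plus strand: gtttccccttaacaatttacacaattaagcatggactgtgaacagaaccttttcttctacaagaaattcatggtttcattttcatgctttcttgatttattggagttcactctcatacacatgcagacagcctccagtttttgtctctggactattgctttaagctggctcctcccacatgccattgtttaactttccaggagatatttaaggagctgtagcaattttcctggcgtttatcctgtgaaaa
Akr1b7, chr6:34412112-34412361, plus strand: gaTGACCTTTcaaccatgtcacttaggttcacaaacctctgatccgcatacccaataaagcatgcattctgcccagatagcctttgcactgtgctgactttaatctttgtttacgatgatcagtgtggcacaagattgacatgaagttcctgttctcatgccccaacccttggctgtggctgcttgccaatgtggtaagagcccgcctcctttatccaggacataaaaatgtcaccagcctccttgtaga
Akr1c12, chr13:4279400-4279649, minus strand: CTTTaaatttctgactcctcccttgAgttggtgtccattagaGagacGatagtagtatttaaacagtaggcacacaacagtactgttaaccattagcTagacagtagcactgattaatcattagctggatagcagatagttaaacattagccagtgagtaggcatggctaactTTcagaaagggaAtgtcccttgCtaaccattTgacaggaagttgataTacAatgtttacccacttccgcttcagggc
Akr1c13, chr13:4190937-4191186, plus strand: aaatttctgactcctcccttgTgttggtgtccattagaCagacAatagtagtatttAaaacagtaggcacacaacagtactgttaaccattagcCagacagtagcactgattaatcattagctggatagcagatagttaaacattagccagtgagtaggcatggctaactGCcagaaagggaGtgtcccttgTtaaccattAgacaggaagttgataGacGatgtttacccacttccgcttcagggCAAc

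The promoters of Akr1c12 and Akr1c13 were 92.52% identical, with 15 unmatched bases in each, whereas those of Akr1c18 and Akr1c14 were 49.06% identical. Both strands of all 7 promoters were searched for 7 motifs: the NR4A element AAAGGTCA, the NR5A element CAAGGTCA, which shares its last 7 letters with the NR4A element, the STAT element TTCNNNGAA, the AP-1 element TGANTCA, the full androgen and progesterone receptor element, the antioxidant element TGACNNNGC and the TATA box TATAAA. None of these letters occurred in the windows of Akr1c18, Akr1c14, Akr1c12 or Akr1c13. Akr1b7 held an NR4A element on the opposite strand (TGACCTTT, 248 to 241 bases upstream), a motif found in 1.34% of 32851 promoters. Akr1cl held the antioxidant element on the opposite strand, 166 to 158 bases upstream (10.2% of promoters), and Akr1b8 the TATA letters on the opposite strand, 159 to 154 bases upstream (12.4%). The other shares were 1.33% for NR5A, 7.02% for STAT, 6.75% for AP-1 and 0.00913% for the receptor element. A match or its absence describes the letters of this window and nothing more.

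Akr1c18 was almost absent from treated ovaries, and lower still in Post T than in On T ovaries. Its level, in TPM (transcript abundance adjusted for gene length and depth, as the authors deposited it), was 174.68, 206.22, 263.64 and 151.84 in the 4 On T controls and 0.75, 0.66, 1.47 and 0.72 in the On T ovaries. It was 198.65, 220.03, 190.22 and 167.55 in the Post T controls and 0.39, 0.30, 0.33 and 0.16 in the Post T ovaries. No control was below 151.84 and no treated library above 1.47, so the groups were far apart, and the On T and Post T values did not overlap each other either. The library with the highest value among the 8 treated ones was On T library 3.

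In a negative binomial fit of the counts over all genes (edgeR), the log2 fold change of Akr1c18 was -7.78 (SE 0.26) on testosterone, a level 219.9-fold lower or 0.455% of control. After testosterone it was -9.39 (SE 0.29), 669.9-fold lower or 0.149% of control. From the lowest, these values ranked 7 and 2 among the log2 fold changes of 18833 genes, as a description of a gene chosen for this difference. Leaving out any 1 library kept the log2 values between -8.08 and -7.61 on testosterone and between -9.58 and -9.15 after it. The treated levels rest on few reads: 29, 14, 36 and 18 counts in the On T libraries and 11, 7, 7 and 5 in the Post T libraries, against 3989 to 7398 in all 8 controls. No stretch of 150 bases in Akr1c18 transcripts occurs unchanged in another gene.

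**Figure D1:**
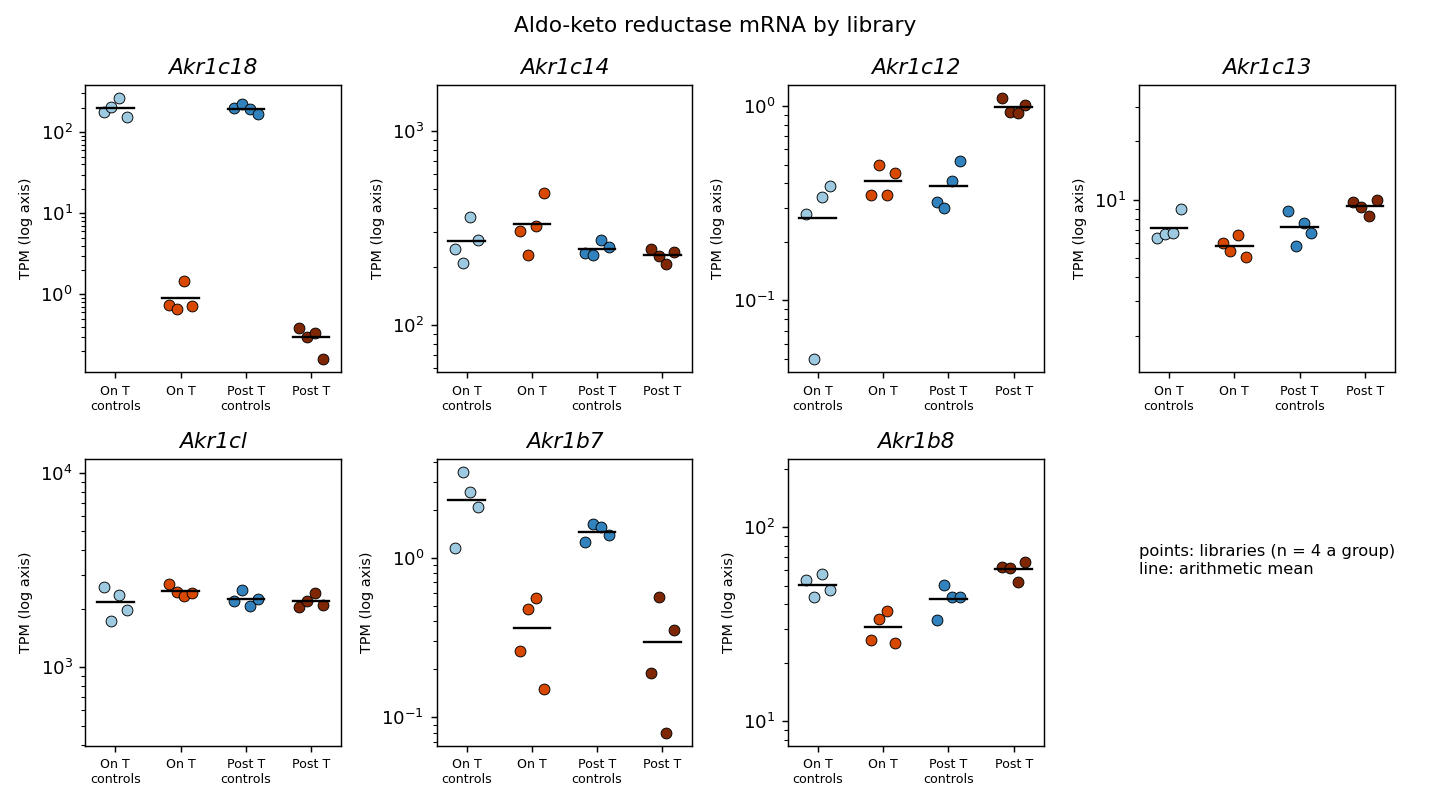
TPM (log axis) of the 7 genes in each of the 16 libraries, with 1 panel per gene, 1 point per library and a bar at the mean of each group of 4. Akr1c18 dropped from 151.84 to 263.64 in the 8 controls to 0.16 to 1.47 in the 8 treated libraries, while the treated values of Akr1cl and Akr1c14 overlapped those of their controls.

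Akr1c14, next to Akr1c18 on chromosome 13, had values in treated ovaries that overlapped those of controls. It stood at 246.63, 208.95, 359.43 and 274.42 TPM in the On T controls and at 304.11, 228.39, 322.90 and 476.37 in the On T ovaries. The Post T controls held 234.01, 229.47, 273.77 and 252.40 TPM and the Post T ovaries 245.56, 226.74, 207.57 and 238.97. This was so in both cohorts, and the highest single value was in On T library 4. The log2 fold changes were 0.30 (SE 0.19) and -0.07 (SE 0.19). In controls Akr1c14 ran at 1.40 ± 0.325 and 1.29 ± 0.218 times the TPM of Akr1c18 (mean ± SD, n = 4), and in treated ovaries at 408 ± 186 and 877 ± 415 times. A pseudogene on the same strand, Gm18857, covers 7.224% of its exon bases but had 0 or 1 count in every library.

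Akr1c13, on the other side of Akr1c18, was a less abundant transcript. It had 6.35, 6.69, 6.75 and 9.00 TPM in the On T controls and 5.96, 5.44, 6.62 and 5.07 in the On T ovaries. It had 8.74, 5.82, 7.58 and 6.71 TPM in the Post T controls and 9.78, 9.18, 8.24 and 10.00 in the Post T ovaries. Treated and control ranges overlapped in both cohorts, but the 4 Post T values were all above the 4 On T values. The log2 fold changes were -0.32 (SE 0.17) on testosterone and 0.41 (SE 0.17) after it.

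Akr1c12, which shares 96.19% of its coding bases with Akr1c13, was close to the detection limit and highest after testosterone. The On T controls had 0.28, 0.05, 0.34 and 0.39 TPM and the On T ovaries 0.35, 0.50, 0.35 and 0.45. The Post T controls had 0.32, 0.30, 0.41 and 0.52 TPM and the Post T ovaries 1.10, 0.93, 0.92 and 1.01. The Post T ovaries stood apart from the other 12 libraries, at log2 1.41 (SE 0.33) or 2.7-fold above their controls, whereas On T ovaries overlapped theirs (log2 0.57, SE 0.36). The counts were small, 35, 24, 23 and 34 in the Post T libraries, and Akr1c12 passed the filter mainly through that group, where it is high. Of its windows of 150 bases, 7.104% occur in Akr1c13, so how the authors' counting split reads between them is uncertain. In the Post T ovaries Akr1c13 had 9.40 ± 0.556 times the TPM of Akr1c12.

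**Figure D2:**
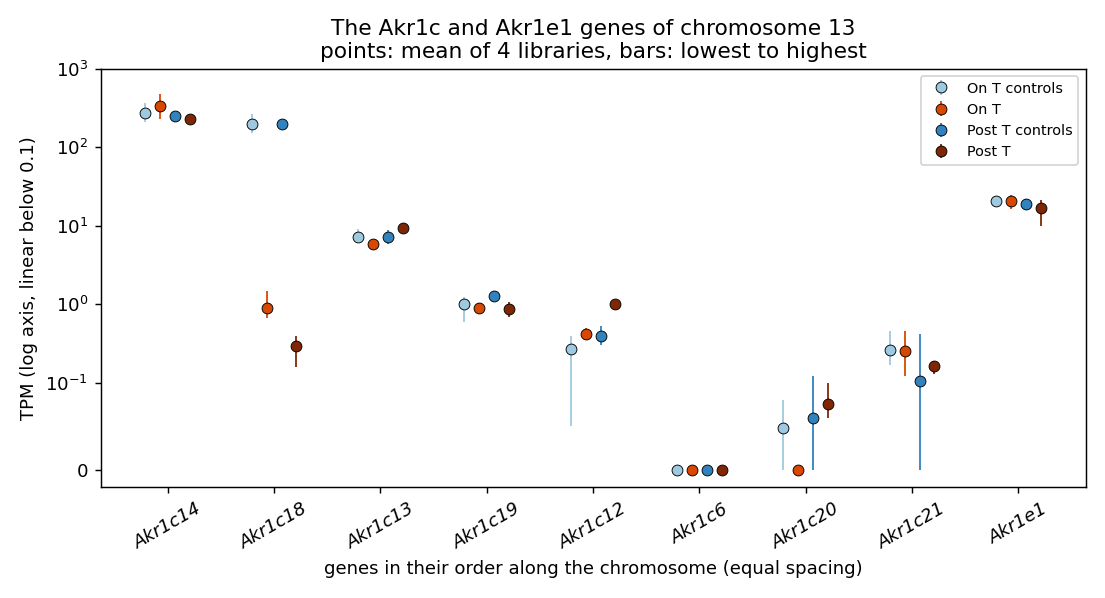
The 9 aldo-keto reductase genes of the chromosome 13 group in their order, with the mean TPM of each group of 4 libraries as points and the lowest to highest library as bars, on a log axis that is linear below 0.1. Akr1c18 fell below 1 TPM in both treated groups, and its neighbours Akr1c14 and Akr1c13 kept means of 230 to 333 and of 5.77 to 9.30.

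Akr1cl was the most abundant of the 7 genes in every library. It had 2592.44, 1737.67, 2360.47 and 1970.67 TPM in the On T controls and 2686.60, 2431.60, 2321.33 and 2400.42 in the On T ovaries. It had 2204.50, 2483.51, 2072.81 and 2241.49 TPM in the Post T controls and 2033.45, 2204.88, 2399.49 and 2080.22 in the Post T ovaries. These ranges overlapped, and the log2 fold changes were 0.16 (SE 0.14) and -0.02 (SE 0.14). Akr1cl is also the gene most like Akr1c18 in sequence, with 77.57% of coding bases identical. On the opposite strand the gene Gm8550 (55 to 644 counts) covers 11.7% of its exon bases, and the sources do not say if reads were counted by strand.

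The summed TPM of the 7 genes overlapped between treated and control ovaries. It was 2697 ± 435 in the On T controls and 2831 ± 163 in the On T ovaries, and 2744 ± 173 and 2481 ± 141 in the older pair. Akr1c18 supplied 7.46% ± 1.80 and 7.07% ± 0.599 of that sum in the 2 control groups, against 0.0322% ± 0.0150 on testosterone and 0.0119% ± 0.00406 after it. Akr1cl supplied 80.2% ± 3.00 and 82.0% ± 1.34 in controls and 86.9% ± 3.32 and 87.8% ± 1.57 in treated ovaries.

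Akr1b7 was the only other gene of the 7 that was below its controls in both cohorts. It had 1.15, 3.46, 2.57 and 2.08 TPM in the On T controls and 0.26, 0.48, 0.56 and 0.15 in the On T ovaries. It had 1.26, 1.63, 1.55 and 1.39 TPM in the Post T controls and 0.19, 0.57, 0.08 and 0.35 in the Post T ovaries. No treated library reached the lowest control, and the On T and Post T values overlapped each other. The log2 fold changes were -2.67 (SE 0.43), 6.38-fold lower, and -2.26 (SE 0.44), 4.90-fold lower. It passed the filter through its controls, and the treated libraries held 2 to 15 counts each. The opposite-strand gene Gm13857 covers 27.2% of its exon bases but had 0 or 1 count per library.

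Akr1b8, upstream of Akr1b7 on chromosome 6, was lower on testosterone and higher after it. It had 53.50, 43.61, 57.59 and 47.21 TPM in the On T controls and 26.27, 33.47, 37.18 and 25.39 in the On T ovaries. It had 33.21, 50.14, 43.80 and 43.73 TPM in the Post T controls and 61.97, 61.31, 52.41 and 66.34 in the Post T ovaries. The treated and control values did not overlap in either cohort, and they lay on opposite sides. The log2 fold change was -0.73 (SE 0.12), 1.66-fold lower, on testosterone and 0.55 (SE 0.12), 1.46-fold higher, after it. Akr1b7 and Akr1b8 share 84.86% of their coding bases, but no window of 150 bases.

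Counted over the 7 genes by counts relative to the scaled library size (CPM), Akr1c18, Akr1b7 and Akr1b8 were below their controls without overlap on testosterone, where 7.92% of all genes were. After testosterone Akr1c18 and Akr1b7 were below without overlap (6.92% of all genes) and Akr1c12 and Akr1b8 above (9.62%). Between the treated groups, Akr1c18 was lower in Post T than in On T ovaries without overlap (6.83% of all genes), and Akr1c12, Akr1c13 and Akr1b8 were higher (11.1%). Between the control groups 0 of the 7 stood apart (5.89%). Nothing is read from these counts, since the genes were chosen with both treatment contrasts known. The edgeR quasi-likelihood test at an adjusted p under 0.05 called 9.27% of all genes on testosterone and 12.3% after it.

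**Figure D3:**
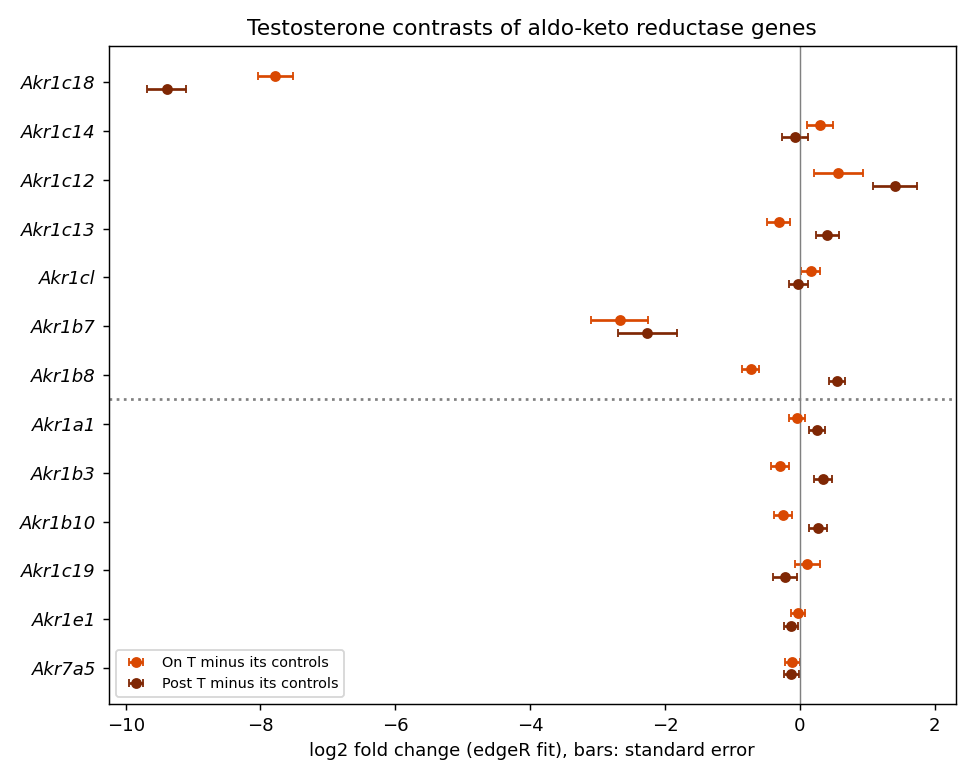
Log2 fold changes of the 7 genes (above the dotted line) and 6 other Akr genes (below it) on testosterone and after it, with bars of 1 standard error on either side. The values of Akr1c18 were -7.78 on testosterone and -9.39 after it, and Akr1b8 lay on opposite sides of 0 in these contrasts (-0.73 and 0.55).

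The effects in the 2 cohorts were also set against each other, as the difference of effects, Post T minus On T. That difference is built from the contrasts known when the genes were chosen, so for these 7 genes it is a description with no test. By the edgeR rule 1 of the 7 (Akr1b8) was past the threshold, where 3.25% of all genes were, and nothing is read from this. Akr1b8 had the difference of 1.28 on a log2 scale (SE 0.17), with all 4 On T libraries below and all 4 Post T libraries above their controls, and 1.20 to 1.39 when 1 library was left out.

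For Akr1c18 the difference was -1.61 (SE 0.43), or -0.52 in limma on log2(TPM + 1), a scale that compresses values under 1 TPM. Without single libraries it ran from -1.80 to -1.30. The other differences were 0.84 for Akr1c12 (SE 0.49), 0.72 for Akr1c13 (SE 0.24), 0.41 for Akr1b7 (SE 0.63), -0.18 for Akr1cl and -0.37 for Akr1c14 (SE 0.27).

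None of the 7 genes differed by the edgeR test between the older and the younger controls, where 0% of all genes were called (1892 had an unadjusted p under 0.05, and DESeq2 called 173). Akr1c18 stood at 199 ± 48.5 TPM in the younger and 194 ± 21.7 in the older controls (log2 -0.03, SE 0.17, edgeR adjusted p = 0.976). For the other 6 genes the log2 difference ran from -0.63 for Akr1b7 to 0.50 for Akr1c12, with edgeR adjusted p of 0.525 or more.

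Among the Akr1 genes tested, those with 73.87% to 77.57% of coding bases identical to Akr1c18 had log2 fold changes between -0.32 and 1.41. Akr1b7, with 54.78%, was at -2.67 and -2.26, but it was the exception at such identity. Akr1a1, Akr1b3, Akr1b8, Akr1b10 and Akr1e1, with 51.34% to 55.83%, lay between -0.73 and 0.55. Akr1c6, Akr1c20 and Akr1c21, each 76.75% identical, had too few counts to be fitted. This is a description over genes that share their libraries.

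**Figure D4:**
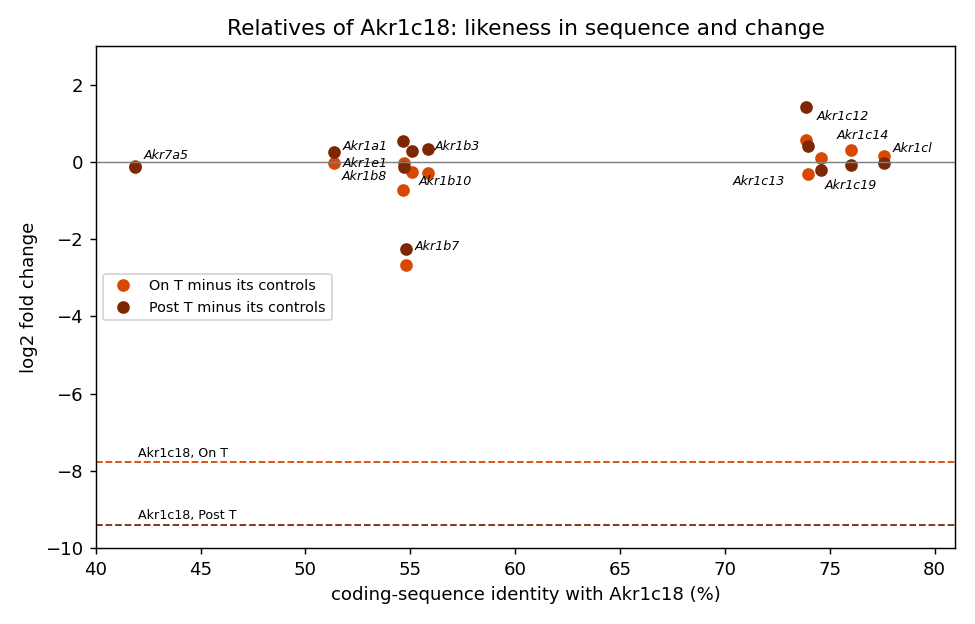
Log2 fold change of each tested relative with an Akr symbol against the share of coding bases identical to Akr1c18 (%), on testosterone and after it, with dashed lines at the values of Akr1c18 (-7.78 and -9.39). The Kcnab genes are not shown. The closest relative, Akr1cl at 77.57%, lay near 0 in both contrasts.

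Of 13 other aldo-keto reductase genes in the table, 9 were tested, and the called ones were all beta subunits of voltage-gated potassium channels, which belong to the superfamily by their fold. This list and the lists below were chosen with earlier results of these data known. Their p-values and calls therefore describe the genes and are no independent test. On testosterone 1 rose and 1 fell (4.24% and 5.03% of all genes), with a list median of -0.04 beside -0.01 over all genes. After testosterone 1 rose and 1 fell (7.49% and 4.81%), with a median of 0.25 beside -0.01. Kcnab3 fell from 33.8 ± 14.1 to 3.02 ± 0.790 TPM on testosterone (log2 -3.38, SE 0.31, edgeR adjusted p = 3.64e-06). It fell from 34.2 ± 14.4 to 3.60 ± 0.457 TPM after it (log2 -3.20, SE 0.31, edgeR adjusted p = 2.02e-06), and the opposite-strand Kcnab3os covers 5.131% of its exon bases. Kcnab1 rose on testosterone (log2 0.73, SE 0.17, edgeR adjusted p = 0.00975). After testosterone Kcnab1 was also higher but not called (log2 0.52, SE 0.17, edgeR adjusted p = 0.0518), while 6 of 16 alternatives called it. Kcnab2 rose after testosterone from 2.24 ± 0.216 to 6.55 ± 0.738 TPM (log2 1.76, SE 0.14, edgeR adjusted p = 2.9e-07), and its effects differed between cohorts (edgeR adjusted p = 0.000657, 1 of the 9 beside 3.25% of all genes).

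The abundant aldehyde reductases outside the Akr1c group were not called. Akr1a1 averaged 647, 629, 698 and 818 TPM over On T controls, On T, Post T controls and Post T ovaries, Akr1b3, the polyol pathway's aldose reductase, 216, 176, 178 and 221, and Akr7a5 70.3, 64.8, 70.2 and 63.0. Their edgeR adjusted p values were 0.104 or more, though Akr1a1 after testosterone was called without Post T control library 1, where its log2 value rose from 0.25 to 0.41, and Akr1b3 was called on testosterone without On T library 3 and after it in a fit of the compared libraries alone. Akr1c6, from the chromosome 13 group, had 0 counts in all libraries, and Akr1c20 and Akr1c21 averaged at most 0.26 TPM in any group.

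The genes that supply progesterone, the substrate of the Akr1c18 enzyme, were lower in part. On testosterone 4 of 11 tested fell and 0 rose (5.03% of all genes fell; list median log2 -0.76 beside -0.01 for all genes), and after it 2 fell and 0 rose (4.81% of all genes fell; median -0.55). Star, which brings cholesterol into mitochondria, went from 218 ± 69.6 to 27.3 ± 27.8 TPM on testosterone and from 440 ± 325 to 119 ± 46.5 after it. Its log2 fold changes were -3.06 (edgeR adjusted p = 0.00229) and -2.01 (edgeR adjusted p = 0.0204). The second call was lost without Post T control library 1, where the value was -1.22, and without Post T library 1, 2 or 3. Fdxr fell in both (-0.76 and -0.55, edgeR adjusted p = 0.00181 and 0.012), and Cyp11a1 (-2.09, edgeR adjusted p = 0.000864) and Fdx1 (-1.58, edgeR adjusted p = 0.0406) fell on testosterone. The Fdx1 call was lost without any single library of the comparison other than On T library 3. After testosterone Cyp11a1 was also lower but not called (-0.96, edgeR adjusted p = 0.0686). It was called there in a fit of the compared libraries alone and without Post T control library 2. Within a library Akr1c18 had 1.03 ± 0.542 and 0.600 ± 0.320 times the TPM of Star in the 2 control groups, 0.0504 ± 0.0295 on testosterone and 0.00305 ± 0.00201 after it.

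Among 15 other steroid-converting enzymes, 1 rose and 1 fell on testosterone (4.24% and 5.03% of all genes, median -0.14), and 2 rose and 1 fell after it (7.49% and 4.81%, median 0.00). Counts of 1 in 15 are near these shares, so the genes are named as single values and not as a change of the list. Hsd17b7, a dehydrogenase of the mouse corpus luteum, fell in both (-2.71 and -4.02, edgeR adjusted p = 0.042 and 0.00357). Its call on testosterone was lost without each On T library in turn and without On T control 2 or 4, and its value without control library 2 was -1.58. Cyp1b1, which hydroxylates estrogens, rose on testosterone (0.63, edgeR adjusted p = 0.0134). That call was lost without On T control library 4. Hsd17b11 and Srd5a3 rose after it (0.57 and 0.27, edgeR adjusted p = 0.00193 and 0.0284), and the Srd5a3 call was lost when Post T controls 3 or 4, or Post T libraries 1, 3 or 4, were left out.

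Of 19 genes listed for the prostaglandin and prolactin signals of luteal regression, 6 fell and 0 rose on testosterone (5.03% of all genes fell, median -0.48), and 6 fell and 0 rose after it (4.81%, median -0.25). Whether they act on Akr1c18 in these ovaries was not tested. Ptgfr, the receptor of prostaglandin F, went from 113 ± 49.8 to 1.17 ± 0.643 TPM and from 148 ± 25.5 to 1.18 ± 0.491 (log2 -6.64 and -6.69, edgeR adjusted p = 5.42e-07 and 2.38e-07). Prlr, the prolactin receptor, fell by 1.21 and 0.98 on the log2 scale (edgeR adjusted p = 0.00523 and 0.0135), the second call being lost without Post T control 4 and without Post T library 3. Cish, which STAT5 induces, fell by 1.24 and 2.53 (edgeR adjusted p = 0.0242 and 5.05e-05), the first call being lost without On T controls 1 or 2 and without On T libraries 1, 3 or 4. Jun and Junb, subunits of AP-1, fell on testosterone (-0.97 and -1.44, edgeR adjusted p = 0.000464 and 0.00142), and the effect on Jun differed between cohorts (1.02, edgeR adjusted p = 0.0094). Oxtr, the oxytocin receptor, and Stat5b, which carries the prolactin signal to the nucleus, fell after it (-1.58 and -0.51, edgeR adjusted p = 0.0017 and 0.0121), and the Stat5b call was lost without Post T control 4.

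Of 12 genes of the oxidant response, which in other tissues includes aldo-keto reductases such as Akr1b8, 1 fell on testosterone and 0 rose (5.03% of all genes fell, median -0.07), and 2 rose and 0 fell after it (7.49% rose, median 0.18). These counts are small, and 1 of 12 is near the share over all genes. Srxn1, sulfiredoxin, fell on testosterone (-2.18, edgeR adjusted p = 0.00116). Slc7a11, the cystine transporter, and Ephx1, an epoxide hydrolase, rose after it (1.59 and 1.00, edgeR adjusted p = 1.45e-06 and 0.00675). The effects differed between cohorts for 2 of the 12 (3.25% of all genes), Srxn1 (2.39, edgeR adjusted p = 0.0133) and Slc7a11 (1.64, edgeR adjusted p = 0.000657). Both differences were positive, like that of Akr1b8, but so were 551 of the 612 called over all genes. Nothing is read from the shared direction.

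Markers of several cell types moved in the same comparisons. The summed TPM of 9 luteal markers, 8 of them also in the lists above, was 8831 to 10583 in On T controls and 3895 to 6844 on testosterone, and 7481 to 12750 and 4110 to 7628 in the older pair, with no marker at 0. Its medians were 10058 and 4416 in the younger pair and 10378 and 5894 in the older, while Akr1c18 was at 0.455% and 0.149% of control. Much of that luteal sum was Hsd3b1, which was not called (means of 4264 and 3727 TPM in the younger pair, 4308 and 3550 in the older). Of the 9 luteal markers, 6 were called lower on testosterone and 5 after it (list medians log2 -2.09 and -0.98), so the sum understates their fall. The sum of 8 macrophage markers was 283 to 419 and 587 to 1107 in the younger pair and 463 to 1130 and 4158 to 5786 in the older, highest in the group in which Akr1c12 and Akr1b8 were highest. Most of that sum was Lyz2 (3218 to 4490.0 TPM in Post T ovaries) and Gpnmb (603 to 799), with 3 of 8 markers called higher on testosterone and 4 of 8 after it (list medians log2 0.23 and 0.78), and the macrophage receptor Adgre1 was at 5.07 to 10.5 TPM in Post T controls and 8.83 to 11.2 in Post T ovaries. The sum of 6 fat markers was 31.8 to 86.1 in Post T controls and 181 to 249 in Post T ovaries, of which Fabp4 gave 135 to 215, while Adipoq, which defines fat cells, stayed at 0 to 3.69 TPM. Of 5 stroma markers, Pdgfra, Dcn and Tcf21 were called higher and Col1a1 lower on testosterone (median 0.63), and Tcf21 higher after it (median -0.09). Insl3 of theca cells was called higher after testosterone, and Vwf of endothelium higher in both comparisons. No marker of granulosa cells, oocytes, surface epithelium or oviduct was called in either. Markers of the adrenal cortex, a known site of Akr1b7, were low in all groups (5 markers, sums from 9.06 to 22.5 TPM), with most of the sum from Nr0b1. Cyp11b2 was at 0 in all of them, but Cyp11b1 was at 0.29 to 0.48 TPM in On T controls, 0.13 to 0.37 in Post T controls and 0 in all 8 treated libraries, low where Akr1b7 was low. The part of these cell types in the values of the 7 genes was not tested.

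By the correlation of log2 CPM over the 16 libraries, the tested genes most like Akr1c18 among 13427 were Onecut2 (r = 0.986), Wnt10b (0.985), S100a6 (0.985), Trpm6 (0.979), Abcb1b (0.977), Cdkn2b (0.977), Tnc (0.971) and H2-Q10 (0.970). These genes shared its split between control and treated libraries, and Abcb1b and H2-Q10 have close relatives in the genome with which reads may be shared. Onecut2 and Wnt10b were the nearest to it in size too, with log2 fold changes of -7.98 and -7.67 and of -8.49 and -9.12. Onecut2 was a far scarcer transcript than Akr1c18. It averaged 1.46 TPM in On T controls and 0.005 in On T ovaries, and 1.42 in Post T controls and 0.0075 in Post T ovaries. Wnt10b was at 53.5 ± 30.9 TPM in On T controls and 0.165 ± 0.00577 in On T ovaries. S100a6 was the most abundant, at 330 ± 57.7 and 24.4 ± 6.38 TPM. With the group means removed, other genes came first, Enkd1 (0.883), Poc1a (0.858), Aunip (0.83), Dnmt1 (0.828) and Cnga1 (0.823).

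Among the 7 genes themselves, Akr1c18 and Akr1b7 had r = 0.90 over the 16 libraries but 0.11 once group means were removed, and Akr1c18 and Akr1cl had -0.16 and 0.23. The genes most like Akr1b7 were Plekhg4 (0.930), Fam83g (0.929) and Klhl30 (0.927). Those most like Akr1b8 were Adgrg7 (0.916), Cd44 (0.912) and Slc11a2 (0.911), and those most like Akr1c12 were Arl11 (0.901), H2-T10 (0.890) and Stx7 (0.889). Akr1c13 was most like Atp6v0e (0.886), Wsb2 (0.864) and Atp6v1d (0.861), the first and last being subunits of the proton pump of lysosomes. Akr1cl was most like Mpst (0.901), Nthl1 (0.839) and Pigyl (0.827), and Akr1c14 most like Nek8 (0.924), Fam53a (0.917) and Zfp277 (0.885). All these correlations share the 16 libraries and are descriptions.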

How the data were processed

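RNA selected for poly(A) from 16 mouse ovaries, 4 in each of 4 groups, was sequenced as paired ends with a directional kit, per the labels. In the submitters' processing notes stand the build GRCm38, RSEM 1.3.3, STAR 2.7.8a, FastQC 0.11.8 and cutadapt 2.3. Expected counts, estimated per gene by the authors and not normalised, were deposited as whole numbers. TPM was deposited as well, adjusted for length and depth by the authors. FPKM was left aside. Annotation release and strand setting are not given in the sources used here.

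In R 4.3.3, edgeR 4.0.16 fitted the counts (filterByExpr with a minimum count of 10, TMM scaling, a mean per group over all 16 libraries, quasi-likelihood F test, Benjamini-Hochberg adjustment at 0.05). A standard error is the fold change divided by the root of its F statistic. Library totals were 26598055 to 52659637 counts, which limits the precision of Akr1c12, Akr1b7 and treated Akr1c18. Likeness was computed on log2 CPM (prior count 2) over genes with a mean of at least 1 CPM. Positions came from GENCODE for GRCm38, which held 55154 of the identifiers (99.51%), and promoters from RefSeq for GRCm38.p6, where all 7 genes matched by symbol. Sequence identity was computed with Biopython 1.88.

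The 7 genes, the gene lists and the tests were chosen with earlier results of these data known, so the p-values of listed genes are no independent test. The difference of effects of the 7 genes had been planned as a test and is given as a description, since both of its parts were known when they were chosen. Named were all 7 genes, the called genes and the 3 most abundant of the other aldo-keto reductases, up to 4 called genes with the smallest p per list and treatment contrast, and the genes of highest correlation. Akr1c6, Akr1c20 and Akr1c21 complete the chromosome 13 group. Alternatives tried were no filter, 1 CPM in 4 libraries, size factors by median of ratios, DESeq2 1.42.0, limma 3.58.1 on log2(TPM + 1) and log2(TPM + 0.1), a fit restricted to the compared libraries, the replicate number as a block, and leaving out each library in turn. Replicates were distinct libraries by a chi-square comparison. The pipeline was tested on simulated data.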

Additional observations from a re-analysis of the deposited data

Results flagged for a closer look

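Akr1b8 is listed because its difference of effects between the cohorts was past the edgeR threshold (adjusted p under 0.05). The log2 difference of effects was 1.28, with all 4 treated libraries below their controls on testosterone and all 4 above them after it. Since the gene was chosen with both contrasts known, this is a description, and its p served only to list it. Akr1c18 is listed because On T library 3, at 1.04 CPM, lay above the other 3 On T libraries by 0.839 of the range of the group. Akr1c13 is listed because On T control library 4, at 6.32 CPM, lay above its group by 0.84 of the range. Of 28 sets of 4 libraries examined this way, 2 were listed, and chance lists about 1 in 20.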

How the results depend on the processing

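Of the results given with a test, no called one changed sign, and neither fold change of Akr1c18 did in any alternative. The uncalled log2 value of Akr1cl after testosterone crossed 0, from -0.11 to 0.04 over the libraries left out. The fold change of Akr1c18 was smaller in limma on TPM values, at -6.71 on testosterone and -7.23 after it with a pseudocount of 1, and at -8.97 after it with 0.1; a pseudocount compresses low values by construction. Genes called on testosterone numbered 1746, 1130 in limma on log2(TPM + 1), and 1081 to 1762 when 1 library was left out, with 1093 without On T control library 2 and 1081 without On T control library 4. Genes called in the difference of effects numbered 612, and 999 with DESeq2. Genes called between the controls numbered 0, 20 with no filter, 173 with DESeq2, and 0 to 5 when 1 library was left out. The cause was not tested. Akr1b7 moved to -1.25 and -0.93 and Akr1c12 after testosterone to 0.52 in limma on log2(TPM + 1). Beyond the libraries named above, the calls of Star after testosterone and of Hsd17b7 on it were lost in limma on TPM, that of Srd5a3 in limma and with no filter, and those of Hsd17b7, Fdx1 and Srd5a3 in a fit of the compared libraries alone. Same-numbered libraries had deviations with r from -0.019 to 0.233, and libraries of unlike number from -0.238 to 0.155. In the older cohort the 4 same-numbered values were all positive (0.138, 0.233, 0.042 and 0.079). The ranges overlap, so these values do not settle if the numbers pair the samples, and the main fit left pairing out. With a replicate block the calls were 1676, 2274, 567 and 0 on testosterone, after it, in the difference and between controls, and the difference of effects of Akr1c18 was -1.61, while the calls of Hsd17b7 on testosterone and Star after it were lost and those of Kcnab1 and Akr1b3 after it were gained. Depth limits Akr1c12, Akr1b7 and the treated values of Akr1c18, which rest on 1 to 36 counts in the low libraries.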
